A study of Mus musculus with 2 samples.

Results

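Glycolysis splits glucose to pyruvate in the cytosol, and lactate dehydrogenase turns pyruvate to lactate, so that ATP can be made without oxygen. When oxygen is short, prolyl hydroxylases no longer mark the HIF-1α and HIF-2α proteins for destruction, and these transcription factors switch on glucose transporters, most glycolytic enzymes and other adaptive genes. In the kidney the proximal tubule (PT) runs mainly on fatty acid oxidation and makes glucose, whereas the thick ascending limb (TAL), the distal segments and the collecting duct can use glycolysis. The 33 genes described here are the enzymes and transporters of glycolysis and lactate metabolism, the oxygen sensing genes, and known hypoxia response genes. They were chosen by symbol among 32285 genes listed, by a rule that used no measured value but with earlier results of these data known, and all 33 were found. Aldoa is listed under 2 gene identifiers, which were summed.

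The data are 2 scRNAseq libraries of whole kidney digests from C57BL/6J wildtype male mice of 19 weeks. The control library came from the contralateral, uninjured kidney, and the ischemia library came from a left kidney clamped for 27 min and reperfused for 24 h. Each condition is 1 library, so no difference between conditions can be tested, and every interval below covers counting error only. The control is a kidney from an animal that had surgery, and the labels do not say whether more than 1 animal was used. Levels are in CPM, the unique molecular identifiers (UMIs) of a gene summed over the cells of a type per 1000000 UMIs of those cells, with exact Poisson 95% intervals. A ratio is the CPM in ischemia over that in control with its exact conditional binomial 95% interval. A gene was called higher or lower when its ratio passed 1.5-fold in a cell type with at least 100 UMIs of the gene over both libraries.

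After filtering, 12586 control and 13116 ischemia cells remained, with a median of 3839 and 2138.5 UMIs, and mitochondrial genes took 25.2% and 20.1% of UMIs. The libraries shared 58 barcodes among the kept cells. Cells were grouped with the members left out of the clustering genes, and clusters were named from marker genes, so each name stands for PT-like, TAL-like and so on. The 10 types with at least 50 cells in each library were compared: PT, thin limb, TAL, distal convoluted and connecting tubule (DCT-CNT), collecting duct principal cells (CD-PC), podocytes, endothelial cells (EC), pericytes, macrophages and T cells. Intercalated cells (IC), neutrophils and B cells had fewer. The CD-PC cluster also held connecting tubule and intercalated cell markers. In PT cells Havcr1, which encodes the injury marker KIM-1, stood at 7.14 CPM in the control library and 417 CPM in the ischemia library. A cluster of 10431 cells with a median of 836 UMIs and 2 smaller ones stayed unnamed.

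HIF binds the letters ACGTG or GCGTG in many of its target genes, so the promoters of the members were searched for both on either strand, in the 250 bases before each transcription start (RefSeq, GRCm38.p6). At least 1 match was present in 27 of the 30 members with an entry, or 90%, beside 41.5% of all 27025 genes. Epas1, Bnip3l and Ndrg1 had no entry. The letters are a description of these windows and were not tested as binding sites. The promoters of 6 members, picked after their values were seen as examples of the contrasts described below, are shown 5′ to 3′ on the strand of the gene, with matches in capitals, which read CACGT or CACGC where the match lies on the opposite strand.
Pgk1, chrX:106186850-106187099, plus strand: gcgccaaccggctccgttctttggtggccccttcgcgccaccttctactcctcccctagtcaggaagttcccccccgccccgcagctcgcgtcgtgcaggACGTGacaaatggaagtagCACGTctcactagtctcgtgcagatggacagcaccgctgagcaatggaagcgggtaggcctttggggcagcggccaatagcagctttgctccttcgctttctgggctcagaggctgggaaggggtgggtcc
Hk2, chr6:82774455-82774704, minus strand: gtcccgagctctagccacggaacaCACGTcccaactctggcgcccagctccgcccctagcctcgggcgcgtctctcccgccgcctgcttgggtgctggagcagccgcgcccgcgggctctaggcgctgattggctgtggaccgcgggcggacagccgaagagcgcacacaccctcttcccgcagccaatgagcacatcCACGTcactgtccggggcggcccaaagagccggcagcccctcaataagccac
Slc2a1, chr4:119108495-119108744, plus strand: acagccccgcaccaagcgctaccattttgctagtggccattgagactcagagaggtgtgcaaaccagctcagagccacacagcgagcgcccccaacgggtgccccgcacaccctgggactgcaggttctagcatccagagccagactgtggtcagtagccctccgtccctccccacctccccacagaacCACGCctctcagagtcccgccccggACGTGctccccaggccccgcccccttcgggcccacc
Pfkfb3, chr2:11502091-11502340, minus strand: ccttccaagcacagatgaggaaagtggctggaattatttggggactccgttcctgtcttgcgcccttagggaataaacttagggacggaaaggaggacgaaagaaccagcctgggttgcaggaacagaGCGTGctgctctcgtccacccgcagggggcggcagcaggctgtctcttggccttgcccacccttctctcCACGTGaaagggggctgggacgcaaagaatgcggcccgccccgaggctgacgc
Hif1a, chr12:73907617-73907866, plus strand: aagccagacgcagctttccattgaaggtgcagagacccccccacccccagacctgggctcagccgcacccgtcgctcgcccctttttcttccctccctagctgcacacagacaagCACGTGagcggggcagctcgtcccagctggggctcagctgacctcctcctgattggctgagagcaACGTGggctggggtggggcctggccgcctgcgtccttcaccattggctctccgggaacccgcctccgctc
Pgam2, chr11:5803797-5804046, minus strand: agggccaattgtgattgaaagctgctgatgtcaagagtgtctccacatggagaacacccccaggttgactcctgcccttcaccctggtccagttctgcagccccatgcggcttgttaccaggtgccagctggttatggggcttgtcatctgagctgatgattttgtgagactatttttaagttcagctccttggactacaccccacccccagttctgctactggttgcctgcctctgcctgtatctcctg
The window of Pgam2 held no match, and those of Pgk1, Hk2 and Slc2a1 held 2 each. Hif1a and the window shown for Pfkfb3 held 3 matches each, of which a palindrome read on both strands made up 2.

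The members did not move as 1 list. Of the 33, 29 passed 1.5-fold in at least 1 cell type compared. Among these, 10 were higher only, 10 were lower only, and 9 were higher in some types and lower in others. The shares of all genes that passed in at least 1 type, or in both directions, were not computed. Of the types compared, macrophages had the largest share of members higher and TAL cells the largest share lower. In macrophages 14 of 24 members tested were higher and 2 lower, where 18.4% of all genes tested were higher and 9.42% lower. The median log2 ratio was 0.63 for the members and 0.16 for all genes. Macrophages held 1792187 UMIs in control and 5336576 in ischemia. Some members called higher there, such as Slc2a1, Hk2, Pfkl, Pfkp, Slc16a3 and P4ha1, had under 100 UMIs in control and reached the minimum through ischemia. In TAL cells 3 of 26 were higher and 10 lower, where 16.7% of all genes were higher and 14.8% lower, with medians of -0.32 and 0.10.

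The distal segments and the thin limb also had more members lower than higher. DCT-CNT cells had 5 of 26 members higher and 8 lower, beside 13.5% and 11.6% of all genes, and their median was -0.34 against 0.07. When cells were clustered without integration, neither share of members in DCT-CNT cells was above that of all genes. The member median there stayed below that of all genes. CD-PC cells had 1 of 28 higher and 6 lower, beside 11.1% and 10.2%, with medians of -0.27 and -0.01. Thin limb cells had 2 of 22 higher and 5 lower, beside 13.4% and 14.3%, with medians of -0.39 and 0.02. With CPM averaged over single cells they had 3 higher and 2 lower, beside 17.5% and 15.8%. In PT cells 5 of 30 members, or 16.7%, were higher and 5 were lower, where 14.9% of all genes were higher and 7.78% lower, and the medians were 0.16 and 0.12. EC had 2 of 27 higher and 1 lower, beside 5.98% and 7.94%. Pericytes had 2 of 17 higher and 2 lower, beside 11.1% and 5.74%. Podocytes had 0 of 12 higher and 1 lower, beside 4.41% for each direction, and T cells 0 of 7 higher and 1 lower, beside 11.1% and 6.08%.

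**Figure D1:**
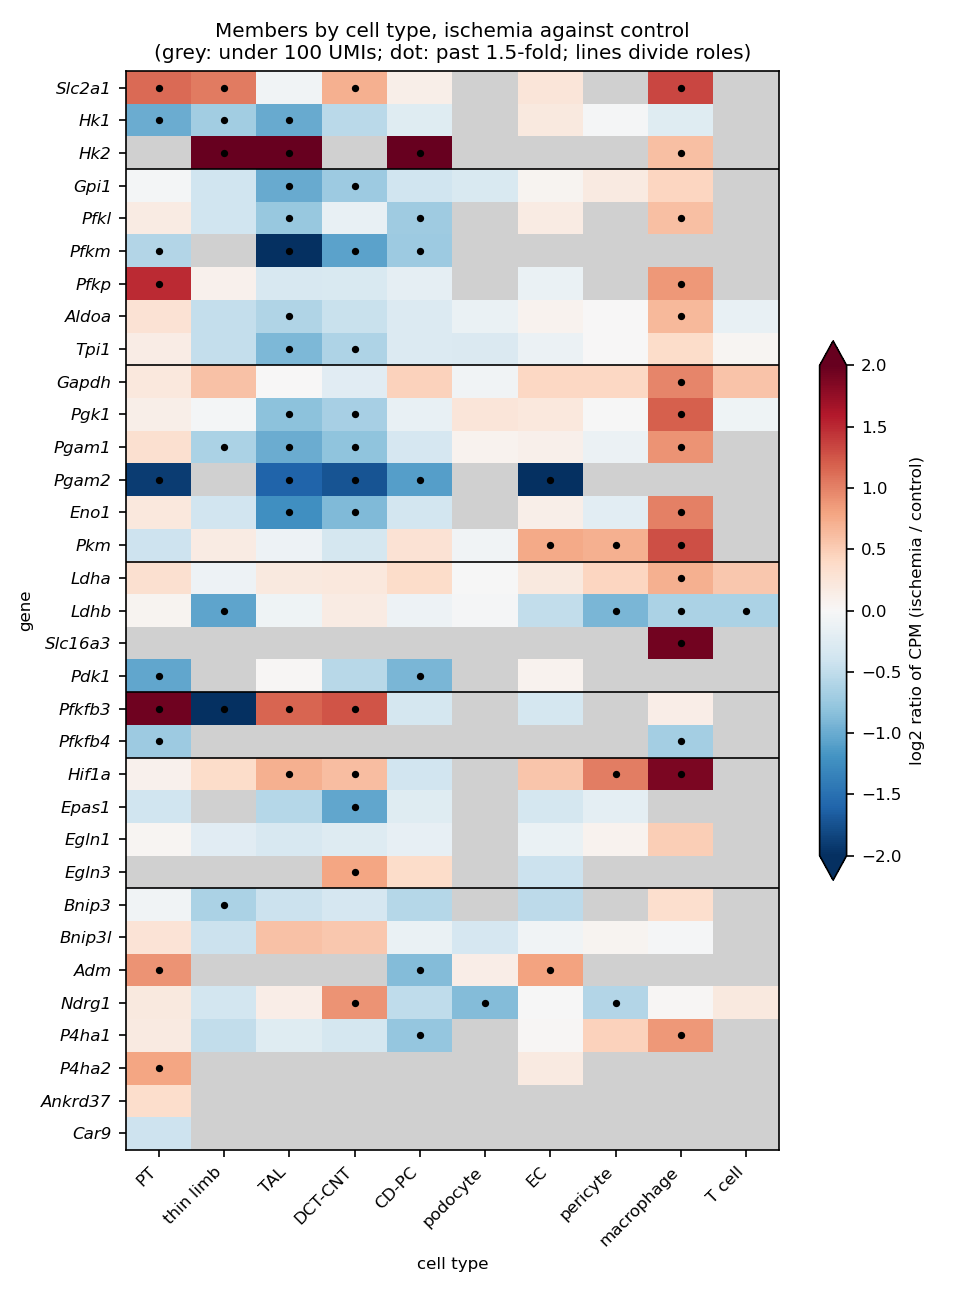
Each row is a member, each column a cell type, and the colour is the log2 ratio of CPM in ischemia to control. Grey cells had under 100 UMIs and dots mark ratios past 1.5-fold. The macrophage column is mostly red (14 members higher) and the TAL column mostly blue in the glycolysis rows (10 members lower).

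**Figure D2:**
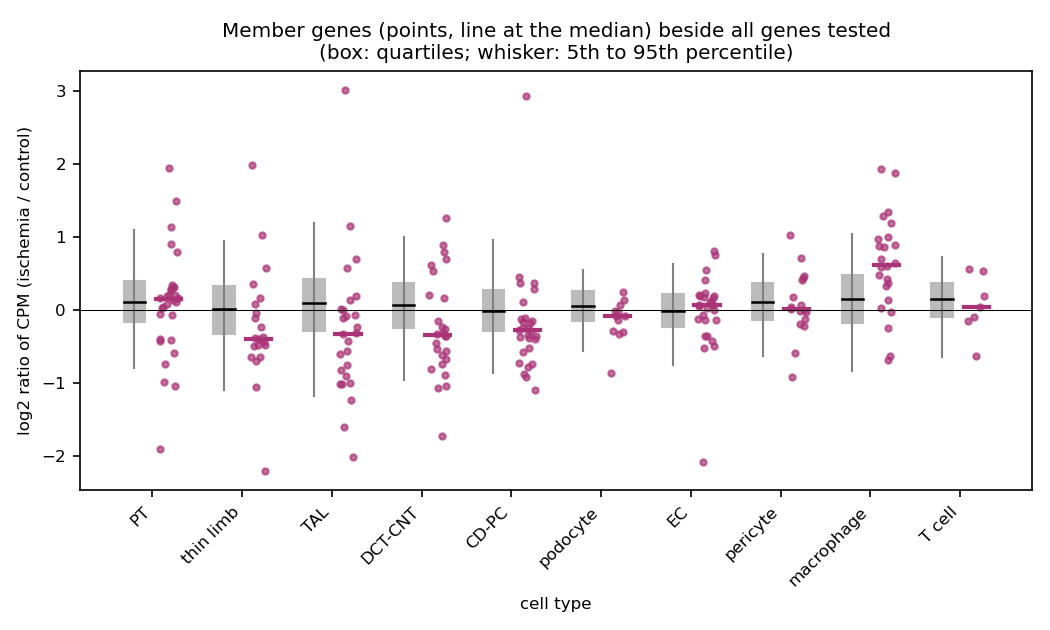
The y axis is the log2 ratio of CPM in ischemia to control. Points are the members tested in each cell type with a line at their median, and the grey boxes and whiskers are the quartiles and the 5th to 95th percentiles of all genes tested. The member median lies above that of all genes in macrophages (0.63 against 0.16) and below it in TAL cells (-0.32 against 0.10).

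Glucose uptake and its first phosphorylation were examined first. Slc2a1, which encodes the glucose transporter GLUT1, was higher in 4 of 7 types tested and lower in none. It stood at 4.05 CPM in control PT cells (95% interval 3.60 to 4.54) and at 8.89 CPM in ischemia (8.20 to 9.63), a ratio of 2.19 (1.91 to 2.53). Its highest level was in thin limb cells, at 144 and 296 CPM in control and ischemia, a ratio of 2.05 (1.77 to 2.38). The thin limb lies in the medulla, the part of the kidney with the least oxygen. The ratio was 1.63 (1.40 to 1.91) in DCT-CNT cells and 2.53 (1.82 to 3.60) in macrophages.

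The hexokinases divided. Hk1, the constitutive isozyme, was lower in PT, thin limb and TAL cells and higher in no type. In TAL cells it was 180 CPM in control and 89.2 CPM in ischemia, a ratio of 0.495 (0.459 to 0.533). Hk2, the isozyme that hypoxia induces, reached 100 UMIs in 4 types and was higher in each. In each of these types most of the UMIs came from ischemia and control alone held under 100. Reaching the minimum itself thus favoured a call of higher. In TAL cells it had 11 UMIs (1.08 CPM) in control and 109 UMIs (8.67 CPM) in ischemia, a ratio of 8.06 (4.33 to 16.6). In CD-PC cells it had 26 UMIs (2.78 CPM) and 232 UMIs (21.3 CPM), a ratio of 7.67 (5.10 to 12.0). Macrophages held more of it than either tubule type, at 49.7 and 74.95 CPM in control and ischemia, a ratio of 1.51 (1.197 to 1.92). That macrophage call was kept under 3 of 10 alternative ways of processing, with a log2 ratio of 0.23 without integration in place of 0.59. The TAL value of Hk2 was unequal between cells, since 5 cells held 32.1% of the ischemia UMIs. With cells of at most 25% mitochondrial UMIs the log2 ratio in TAL cells was 1.28 in place of 3.01. In the thin limb, where 5 cells held 90.9% of 22 control UMIs, the ratio was 3.96 (2.51 to 6.55). PT and DCT-CNT cells were under the minimum, with 2 and 4 UMIs in control and 58 in ischemia in each.

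In upper glycolysis, from glucose 6-phosphate to the trioses, TAL cells had 5 of 6 members lower, beside 14.8% of all genes. Pfkm, the muscle isozyme of phosphofructokinase, was 25.7 CPM in control TAL cells and 6.36 CPM in ischemia, a ratio of 0.247 (0.190 to 0.319). It was lower in all 4 types tested, with ratios of 0.665 in PT, 0.478 in DCT-CNT and 0.603 in CD-PC cells. Gpi1, glucose 6-phosphate isomerase, was 216 CPM in control and 108 CPM in ischemic TAL cells, a ratio of 0.499 (0.466 to 0.534), and its ratio was 0.602 (0.557 to 0.651) in DCT-CNT cells. Tpi1, triosephosphate isomerase, had ratios of 0.538 (0.510 to 0.567) in TAL and 0.654 (0.614 to 0.697) in DCT-CNT cells. The DCT-CNT call of Tpi1 was kept under 7 of 10 alternative ways of processing, with a log2 ratio of -0.32 without integration in place of -0.61. With cells gated by marker UMIs the DCT-CNT log2 ratio of Gpi1 was -0.58, just inside the fold. Aldoa, the main glycolytic aldolase, was 820.0 CPM in control and 540.1 CPM in ischemic TAL cells, a ratio of 0.659 (0.638 to 0.680).

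The other phosphofructokinases did not follow Pfkm. Pfkp, the platelet isozyme, was higher in PT cells, at 4.32 and 12.2 CPM in control and ischemia, a ratio of 2.82 (2.47 to 3.22), and in macrophages, with a ratio of 1.83 (1.41 to 2.42). Pfkl, the liver isozyme, was lower in TAL cells with a ratio of 0.593 (0.514 to 0.682) and in CD-PC cells with 0.609 (0.522 to 0.710). In macrophages its ratio was 1.52, and the interval (1.02 to 2.32) rests on 31 control UMIs.

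Lower glycolysis, from glyceraldehyde 3-phosphate to pyruvate, showed the same contrast between TAL cells and macrophages. Eno1, enolase 1, was 101 CPM in control TAL cells and 43.2 CPM in ischemia, a ratio of 0.427 (0.384 to 0.474). In macrophages it was 65.8 CPM in control and 132 CPM in ischemia, a ratio of 2.01 (1.65 to 2.46). Pgk1, phosphoglycerate kinase 1, was 244 and 138 CPM in TAL cells, a ratio of 0.566 (0.532 to 0.602), and 95.4 and 218 CPM in macrophages, a ratio of 2.29 (1.95 to 2.70). Pgam1, phosphoglycerate mutase 1, was 211 and 106 CPM in TAL cells, a ratio of 0.502 (0.468 to 0.537), and 106 and 197 CPM in macrophages, a ratio of 1.86 (1.59 to 2.18). DCT-CNT cells were lower for these 3 genes too, with ratios of 0.540 for Eno1, 0.630 for Pgk1 and 0.572 for Pgam1. In PT cells all 3 had ratios above 1 but under 1.5. When cells were clustered without integration, the log2 ratios in DCT-CNT cells were -0.43 for Eno1, -0.52 for Pgk1 and -0.51 for Pgam1, inside the fold. Those in macrophages were 0.45 for Eno1 and 0.53 for Pgam1, inside it, while Pgk1 stayed past it. TAL cells could not be compared there.

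Gapdh, glyceraldehyde 3-phosphate dehydrogenase, is often used as a reference gene, and its level was not the same in the libraries. It was 642 CPM in control macrophages and 1267 CPM in ischemia, a ratio of 1.97 (1.85 to 2.10). In TAL cells it was 532 and 534 CPM, a ratio of 1.004 (0.969 to 1.04), while the steps around it were lower. In thin limb cells it was 1057 and 1585 CPM, just under the fold with a ratio of 1.499 (1.42 to 1.59). Pkm, pyruvate kinase, was higher in EC with a ratio of 1.69 (1.55 to 1.84), in pericytes with 1.64 (1.37 to 1.97) and in macrophages with 2.46 (2.20 to 2.75). PT cells held little of it, with 7.57 CPM in control where DCT-CNT cells held 580.4 CPM. Processed copies of Gapdh, Eno1 and other glycolytic genes lie elsewhere in the genome, and reads shared with a copy could have been left out of these counts. For the annotated copy of Eno1, Eno1b, adding its UMIs gave ratios of 0.429 in TAL cells and 2.03 in macrophages.

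Pgam2, the muscle isozyme of phosphoglycerate mutase, was lower in all 5 types in which it was tested. It was highest in DCT-CNT cells, at 573 CPM in control (557 to 589) and 174 CPM in ischemia (165 to 183), a ratio of 0.303 (0.285 to 0.322). CD-PC cells were next, at 362 and 169 CPM, a ratio of 0.467 (0.441 to 0.495). In ischemia the intervals of both types overlapped. The 7 marker genes of DCT-CNT cells summed to 32848 CPM in control and 16676.5 CPM in ischemia in the CD-PC cluster. In DCT-CNT cells they summed to 25044.5 and 14812 CPM, and there they moved unequally beside Pgam2. Calb1, a calcium-binding protein of the distal tubule, was 2409 and 555 CPM in DCT-CNT cells, and Pvalb, parvalbumin, was 408 and 21.1 CPM. The ratio was 0.168 for Slc8a1, 0.686 for Slc12a3, 0.648 for Trpm6 and 0.633 for S100g, and Klk1, a kallikrein, was 3718 and 4034 CPM. In EC, Pgam2 was 22.1 and 5.25 CPM, a ratio of 0.237 (0.157 to 0.349), and the 7 DCT-CNT markers summed to 1312 and 649 CPM in the same cells, with none of the 7 at 0. Among these markers, Calb1 was 97.9 and 15.6 CPM in EC, a ratio of 0.159 (0.128 to 0.197), and Pvalb was 13.0 and 0.599 CPM. Both of these ratios lay further below 1 than that of the sum. In TAL cells Pgam2 was 8.21 and 2.70 CPM beside a marker sum of 2061 and 1067 CPM. In PT cells Pgam2 was 5.76 and 1.54 CPM beside a marker sum of 521 and 809 CPM. The part of RNA from distal cells in these values was not tested.

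**Figure D3:**
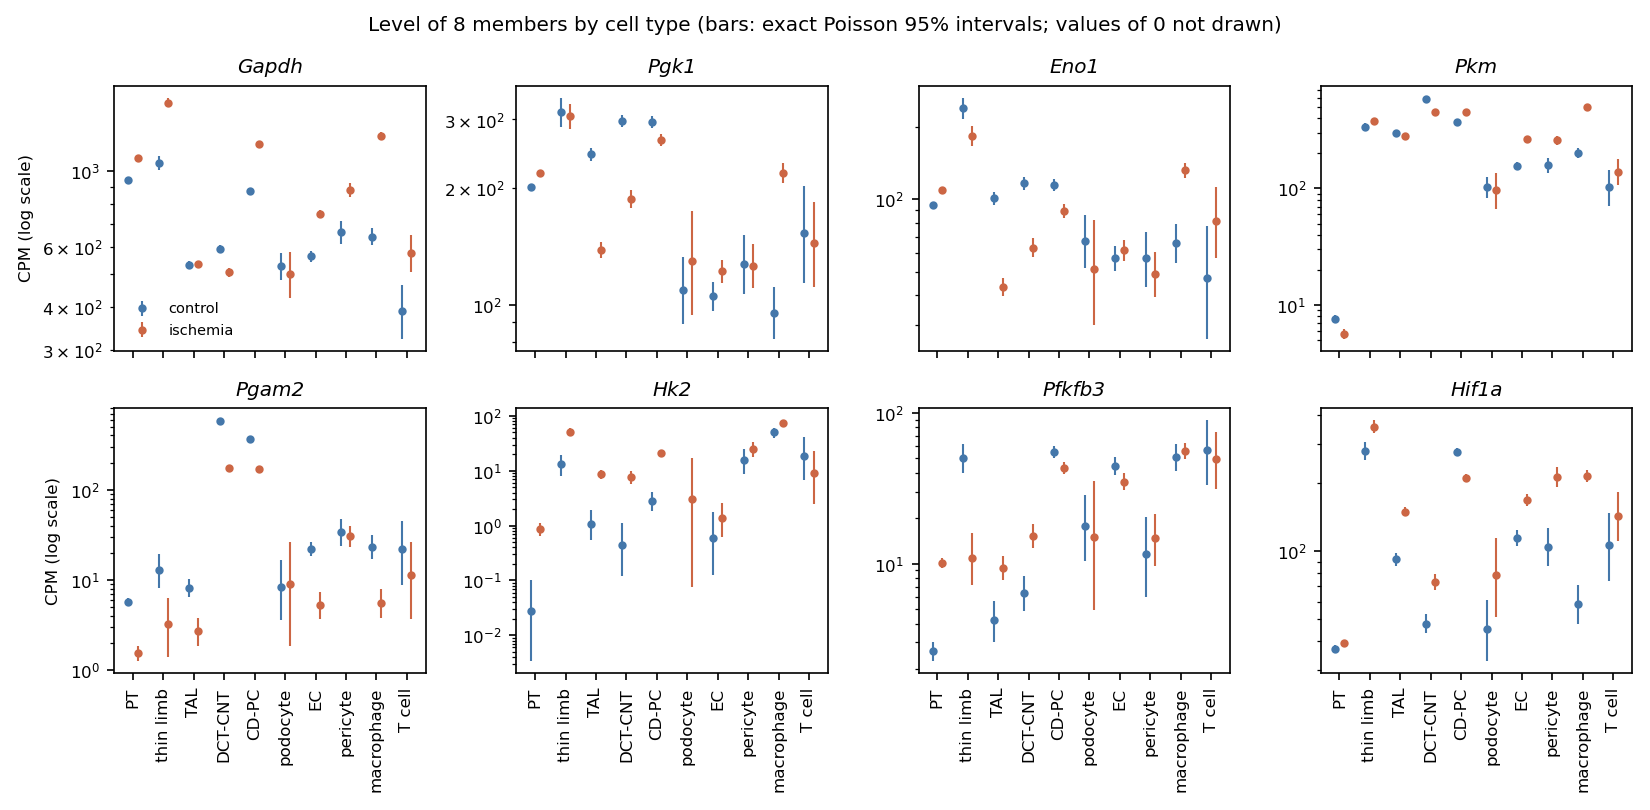
Each panel is a member, with cell types on the x axis and CPM on a log y axis, in blue for control and orange for ischemia, with exact Poisson 95% intervals. Pgk1 and Eno1 lie lower in ischemia in TAL and DCT-CNT cells and higher in macrophages, and Pgam2 is highest in DCT-CNT and CD-PC cells in both libraries.

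Lactate dehydrogenase is a tetramer of subunits from Ldha, favoured where pyruvate is turned to lactate, and Ldhb, favoured where lactate is used. Ldha had ratios above 1 in 8 of 10 types, past 1.5-fold in macrophages, where it was 203 CPM in control and 330.4 CPM in ischemia, a ratio of 1.63 (1.46 to 1.83). In PT cells it was 334 and 417 CPM, a ratio of 1.25 (1.23 to 1.27). Ldhb was lower past the fold in 4 types. Its ratio was 0.481 (0.423 to 0.547) in thin limb cells and 0.533 (0.462 to 0.615) in pericytes. In macrophages it was 0.648 (0.573 to 0.734) and in T cells 0.647 (0.487 to 0.858). With CPM averaged over single cells the log2 ratios in thin limb cells and pericytes were -0.54 and -0.49, inside the fold. With cells gated by marker UMIs they were -0.58 and -0.34. Without integration that in macrophages was 0.07. The T cell call was kept under every alternative that gave a value. Ldhb differed little in PT cells, with a ratio of 1.03 (1.02 to 1.05), and in TAL cells, with 0.945 (0.923 to 0.967). Marker genes of PT cells summed to 1354 and 468 CPM in thin limb cells in control and ischemia. They summed to 3622 and 2301 CPM in pericytes, 3881 and 2023 CPM in macrophages and 7215 and 3393 CPM in T cells. The part of tubule RNA in the Ldhb values of these types was not tested.

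The share of Ldha among the UMIs of both subunits set the cell types apart. In control it ranged from 4.77% in IC and 6.46% in DCT-CNT cells to 59.0% in thin limb cells. Macrophages held 48.0% (44.4 to 51.6) in control and 69.9% (68.1 to 71.7) in ischemia. The share also differed in pericytes, from 33.8% to 56.4%, in EC, from 48.3% to 59.9%, and in T cells, from 36.3% to 56.1%. In DCT-CNT cells it was 6.46% and 6.67%, and these Clopper-Pearson 95% intervals overlapped. In B cells they overlapped as well, at 36.5% and 36.3%. Podocytes held 166 Ldhb and 165 Ldha UMIs in control, and 57 UMIs of each in ischemia. The part of tubule RNA in these shares was not tested.

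**Figure D4:**
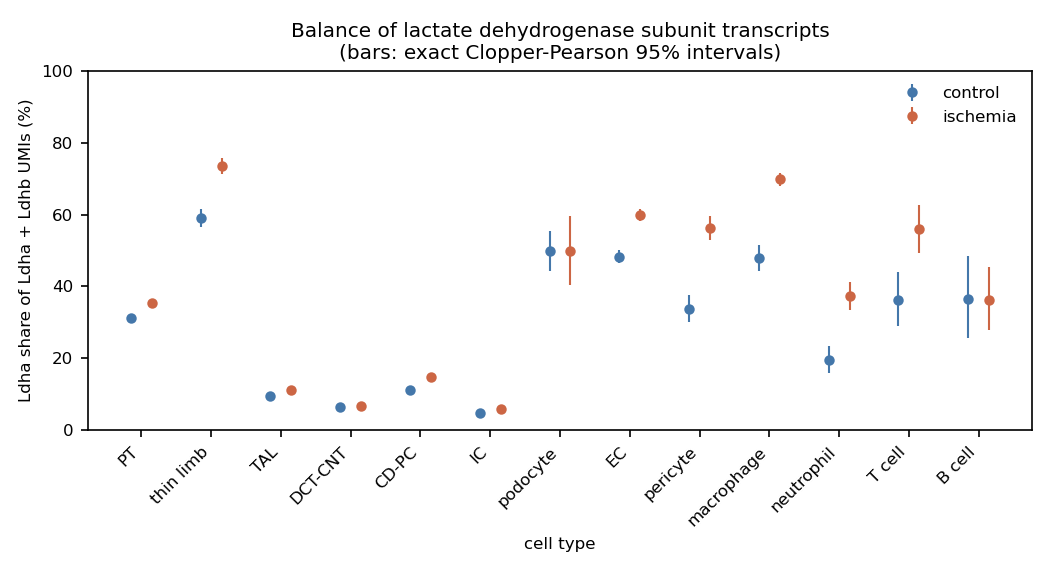
The y axis is the percentage of Ldha among Ldha plus Ldhb UMIs for each named cell type, in blue for control and orange for ischemia, with exact Clopper-Pearson 95% intervals. TAL, DCT-CNT, CD-PC and IC cells lie under 15% in both libraries, and the ischemia point is higher in macrophages (69.9% against 48.0%) and pericytes (56.4% against 33.8%).

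Of the other lactate and pyruvate genes, Slc16a3, which encodes the lactate exporter MCT4, was tested in macrophages alone. It was 15.1 CPM in control (9.93 to 21.9) and 57.3 CPM in ischemia (51.1 to 64.1), a ratio of 3.81 (2.57 to 5.87). Most of its UMIs there came from ischemia, and control alone was under the minimum. Neutrophils, with 33 control cells, held more, at 109 and 406 CPM. In T cells no UMI was found in ischemia, which at a floor of 3 counts allows up to 6.75 CPM. Pdk1, pyruvate dehydrogenase kinase 1, holds pyruvate back from the mitochondria. It was lower in PT cells, at 3.91 and 1.90 CPM with a ratio of 0.487 (0.392 to 0.601), and in CD-PC cells, with a ratio of 0.529 (0.445 to 0.626).

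The regulators of phosphofructokinase make and break down fructose 2,6-bisphosphate, its activator. Pfkfb3 was 2.62 CPM in control PT cells (188 UMIs) and 10.1 CPM in ischemia (687 UMIs), a ratio of 3.84 (3.27 to 4.54). It was higher in TAL cells with 2.23 (1.56 to 3.24) and in DCT-CNT cells with 2.39 (1.73 to 3.33). Most of its UMIs in TAL cells came from ischemia, and control alone was under the minimum there. In thin limb cells it went the other way, at 50.1 CPM (85 UMIs) and 10.9 CPM (27 UMIs), a ratio of 0.218 (0.136 to 0.340). The thin limb value rests on few UMIs, and 5 cells held 47.1% of those in control. Pfkfb4 was lower in both types tested, with ratios of 0.602 (0.472 to 0.764) in PT cells and 0.626 (0.460 to 0.857) in macrophages.

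Among the oxygen sensing genes, Hif1a, which encodes HIF-1α, was higher in 4 of 8 types and lower in none. Its largest ratio was in macrophages, at 58.6 CPM in control (105 UMIs) and 216 CPM in ischemia (1153 UMIs), 3.69 (3.02 to 4.55). It was 2.03 (1.64 to 2.54) in pericytes, 1.63 (1.51 to 1.76) in TAL cells and 1.53 (1.35 to 1.74) in DCT-CNT cells. The DCT-CNT call was kept under 5 of 10 alternative ways of processing. With cells gated by marker UMIs its log2 ratio was 0.12 in place of 0.61. The level of Hif1a was highest in thin limb cells in both libraries, at 277 and 356 CPM, and lowest in PT cells, at 37.1 and 39.2 CPM. Since HIF-1α is controlled mainly as a protein, these values describe the transcript only.

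Epas1, which encodes HIF-2α, was highest in EC, at 513 CPM in control (493 to 533) and 400.2 CPM in ischemia (385 to 416), and next in pericytes, at 316 and 277 CPM. The ratio was below 1 in all 6 types tested and passed the fold in DCT-CNT cells, at 11.1 and 5.37 CPM, a ratio of 0.486 (0.329 to 0.705). With cells gated by marker UMIs this log2 ratio was -0.13 in place of -1.04. Egln1, the main prolyl hydroxylase, passed the fold in none of 8 types, with ratios between 0.804 and 1.40. Egln3, a prolyl hydroxylase that HIF itself induces, was higher in DCT-CNT cells, at 6.19 and 10.7 CPM, a ratio of 1.73 (1.22 to 2.48). Without integration its log2 ratio there was 0.38 in place of 0.79.

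Of the 8 other hypoxia response genes, 2 were higher and 0 lower in PT cells, beside 14.9% and 7.78% of all genes. In CD-PC cells 0 of 5 tested were higher and 2 lower, beside 11.1% and 10.2%. In TAL cells 0 of 4 passed the fold, beside 16.7% of all genes higher and 14.8% lower. Ndrg1 was highest in PT cells, at 1228 and 1408 CPM in control and ischemia, a ratio within the fold. It was higher in DCT-CNT cells, at 245 and 456 CPM, a ratio of 1.86 (1.77 to 1.97) that lay near 1 without integration. In pericytes it was lower, with 0.666 (0.568 to 0.781), a call kept under 6 of 10 alternative ways of processing. In podocytes it was 0.550 (0.414 to 0.721), but 5 cells held 63.5% of the control UMIs and without the 5 highest cells of each library the log2 ratio was -0.06 in place of -0.86. Adm, the vasodilator adrenomedullin, was highest in podocytes, at 148 and 163 CPM. It was higher in PT cells, at 4.50 and 8.41 CPM with a ratio of 1.87 (1.63 to 2.15), and in EC with 1.75 (1.15 to 2.69). In CD-PC cells it was lower with 0.546 (0.436 to 0.681). Its EC log2 ratio fell inside the fold without integration (0.34) and with cells gated by marker UMIs (0.40).

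P4ha1 and P4ha2 encode the collagen prolyl hydroxylases. P4ha1 was higher in macrophages, at 43.5 and 79.1 CPM with a ratio of 1.82 (1.42 to 2.34), and lower in CD-PC cells with 0.583 (0.487 to 0.697). P4ha2 was higher in PT cells, at 10.4 and 17.97 CPM with a ratio of 1.73 (1.58 to 1.90). Of the mitophagy receptors, Bnip3 was lower in thin limb cells with a ratio of 0.642 (0.485 to 0.850). With CPM averaged over single cells this log2 ratio was -0.01 in place of -0.64. Bnip3l passed the fold in none of 9 types, though its ratio in TAL cells was 1.499 (1.34 to 1.68). Ankrd37 and Car9, which encodes carbonic anhydrase 9, reached 100 UMIs in PT cells alone, with ratios of 1.28 (0.997 to 1.63) and 0.752 (0.567 to 0.993). Car9 was at 0 UMIs in thin limb cells in ischemia, which at the same floor allows up to 1.21 CPM.

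PT cells of the ischemia library were then split by Havcr1, a division chosen after the values above were seen. Among cells with at least 5000 UMIs, 1080 had at least 3 Havcr1 UMIs and 575 had none. Slc2a1 was 11.8 CPM in the cells with Havcr1 and 3.64 CPM in those without, a ratio of 3.24 (2.40 to 4.48), and control PT cells held 3.81 CPM. Pfkfb3 was 13.2 and 4.26 CPM, a ratio of 3.11 (2.35 to 4.18), and Adm was 10.4 and 4.49 CPM, a ratio of 2.31 (1.75 to 3.10). For all 3 genes the cells without Havcr1 lay far below those with it, and Slc2a1 and Adm lay near control. These 3 genes reached the minimum through the cells with Havcr1, which held 479 UMIs of Slc2a1, 537 of Pfkfb3 and 421 of Adm. Cells without it held 47, 55 and 58, under the minimum on their own. Their total was also smaller, at 12918415 UMIs against 40581861. Pfkp differed less, at 13.0 and 9.83 CPM, and both were above the 4.07 CPM of control. Of 25 members tested, 3 were higher and 1, Pfkm, was lower, beside 8.93% and 6.46% of all genes. The cells with Havcr1 were deeper, with a median of 39977 against 17759 UMIs, and they held less of the PT transporter Slc34a1, at 959 against 1985 CPM. The part of depth in these values was not tested.

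**Figure D5:**
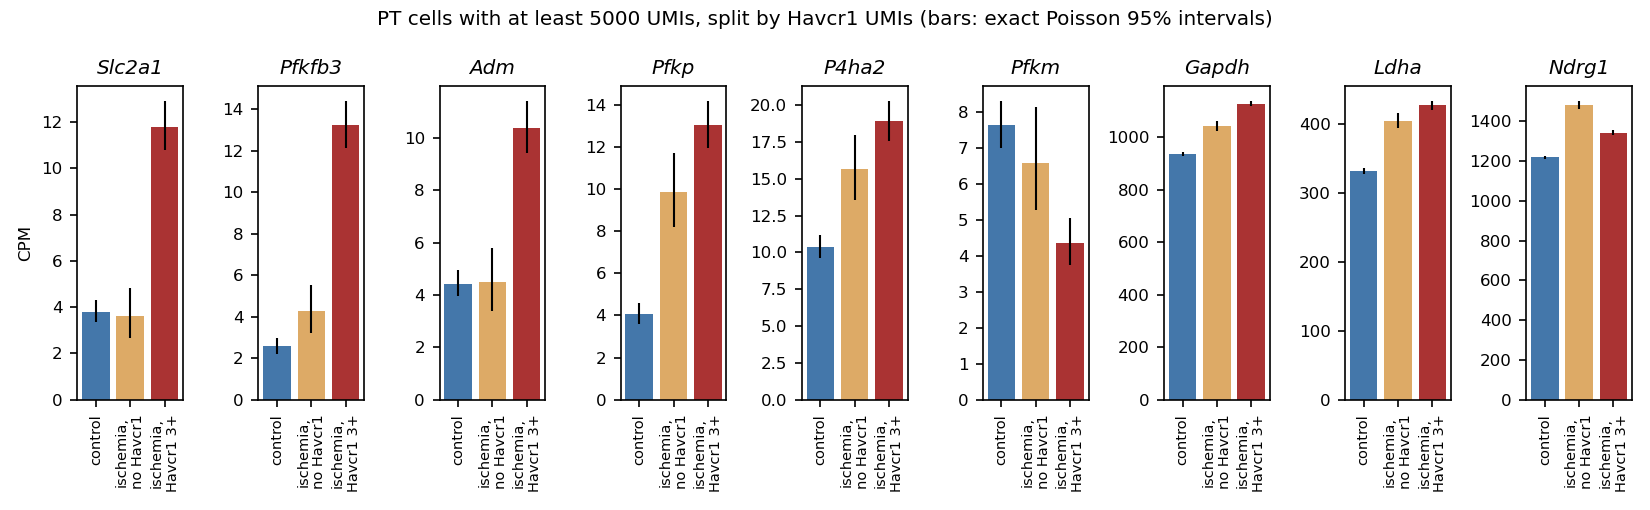
Bars are the CPM of 9 members in PT cells with at least 5000 UMIs, in control, in ischemia without a Havcr1 UMI and in ischemia with at least 3, with exact Poisson 95% intervals and a separate y axis for each gene. Slc2a1, Pfkfb3 and Adm are highest in cells with Havcr1, at 11.8, 13.2 and 10.4 CPM, and Pfkp is above control in both ischemia sets.

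Macrophages differed in makeup between the libraries. C1qa, a marker of resident macrophages, was 3090 CPM in control and 1912 CPM in ischemia, whereas Ccr2, a receptor of infiltrating monocytes, was 242 and 433 CPM and Chil3 was 56.9 and 832 CPM. The 6 neutrophil markers summed to 12.3 CPM in control macrophages, with 3 of them at 0, and to 239.9 CPM in ischemia, with 2 at 0. Cells were therefore divided at 1000 CPM of C1q, after these values were seen, with 55 cells within 2 times of that level. In the 218 control and 300 ischemia cells above it, 11 of 22 members were higher and 2 lower, beside 22.9% and 8.33% of all genes, with a median log2 ratio of 0.58. In the 70 and 274 cells below it, 14 of 21 were higher and 0 lower, beside 23.4% and 11.1%, with a median of 0.74. Hif1a was 58.0 and 146 CPM above the level, a ratio of 2.53 (1.97 to 3.28), and 60.1 and 295 CPM below it, a ratio of 4.91 (3.43 to 7.27). When cells were clustered without integration, the cluster named macrophage held 222 control and 240 ischemia cells with C1q genes leading, and a cluster of 106 and 376 cells led by Lyz2, Chil3 and Ccl6 stayed unnamed. In that macrophage cluster 4 of 18 members tested were higher and 1 lower, beside 20.3% and 6.48% of all genes, so that the share higher was close to that of all genes. The log2 ratio there was 0.38 for Hif1a in place of 1.88, 0.62 for Slc16a3 in place of 1.93, 0.39 for Slc2a1 in place of 1.34 and 0.11 for P4ha1 in place of 0.86. With cells gated by marker UMIs that of Slc16a3 was 1.24 and that of Slc2a1 was 0.73. How far the mix of macrophages and the neutrophil RNA set these ratios was not tested.

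TAL and DCT-CNT cells were checked for the genes that define them. In TAL cells Slc12a1, the sodium-potassium-chloride cotransporter, was 5228 and 497 CPM and Umod, uromodulin, was 12994 and 8328 CPM, beside the 5 of 6 upper and 4 of 6 lower glycolysis members that were lower. In DCT-CNT cells Slc12a3, the thiazide-sensitive cotransporter, was 5300.0 and 3636 CPM. Markers of PT cells, present as UMIs in every type, summed to 1438 CPM in control and 636 CPM in ischemic TAL cells. The part of these in the member values was not tested. Without integration the TAL cells of the libraries lay in different clusters, since the cluster named TAL held 803 control and 13 ischemia cells and an unnamed cluster with TAL as its leading marker list held 34 and 493, so that no comparison could be made there. In DCT-CNT cells the log2 ratio without integration was 0.078 for Ndrg1 in place of 0.90, 0.51 for Pfkfb3 in place of 1.26 and 0.20 for Slc2a1 in place of 0.71. Clusters with PT as the leading marker list divided by library as well. Unnamed ones held 112 control and 6905 ischemia cells and 6192 and 124. These are more cells than the 3915 control and 2811 ischemia cells named PT with integration. Clusters named PT held 2062 and 289 cells and 75 and 1420. In the clusters named PT 5 of 30 members tested were higher and 4 lower, beside 15.1% and 8.46% of all genes. The log2 ratio of Slc2a1 there was 1.25.

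Of 39 related genes in the same pathways, 38 were listed in the files. In TAL cells 4 of 29 tested were higher and 14 lower, beside 16.7% and 14.8% of all genes. In DCT-CNT cells 4 of 28 were higher and 14 lower, beside 13.5% and 11.6%, and in CD-PC cells 3 of 28 and 14, beside 11.1% and 10.2%. In PT cells 7 of 31 were higher and 10 lower, beside 14.9% and 7.78%. The glucose-making enzymes of PT cells were lower. Pck1, which commits carbon to glucose synthesis, was 536 and 157 CPM with a ratio of 0.293 (0.287 to 0.300), and G6pc, which frees glucose from glucose 6-phosphate, was 222 and 54.6 CPM with a ratio of 0.246 (0.237 to 0.255). Slc37a4, its transporter partner, had a ratio of 0.475 there. Fbp1, Pck1, G6pc and Pcx were lower past 2-fold in both TAL and DCT-CNT cells, at levels far under those of PT cells for Pck1, 43.0 and 10.3 CPM in TAL. The 7 related genes of glucose synthesis and fructose use, part of the counts above, were lower in other types too. All 7 were lower in PT, TAL and CD-PC cells and EC, and 6 in DCT-CNT cells and macrophages. The share of all genes lower was 7.94% in EC and 9.42% in macrophages. PT markers summed to 1438 and 636 CPM in TAL cells and to 1316 and 578 CPM in DCT-CNT cells. The part of PT RNA in these values was not tested.

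Slc16a7, a monocarboxylate transporter, was among the most different of the related genes in the distal tubule. It was 536 and 70.4 CPM in TAL cells, a ratio of 0.131 (0.122 to 0.141), and 728 and 198 CPM in DCT-CNT cells, a ratio of 0.272 (0.257 to 0.288). Aldoc was 23.8 and 2.70 CPM in TAL cells. Pdk4, which spares glucose, was higher in PT cells at 27.0 and 65.9 CPM, and Pdk2 was lower in PT and TAL cells with ratios of 0.497 and 0.477. Pdhb, a subunit of pyruvate dehydrogenase, had ratios of 0.416 in TAL and 0.499 in DCT-CNT cells.

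Hypoxia-responsive genes outside the list were split. Vegfa, the endothelial growth factor, was lower in TAL cells, at 88.9 and 27.7 CPM with a ratio of 0.311 (0.274 to 0.352), and Tfrc, the transferrin receptor, was lower in TAL and DCT-CNT cells with ratios of 0.209 and 0.152. Anxa2, Ddit4 and Hmox1 were higher, with ratios in PT cells of 32.4, 2.02 and 3.12. In TAL cells Ddit4 was 16.9 and 58.5 CPM, a ratio of 3.46 (2.93 to 4.10).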

How the data were processed

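Whole kidney digests, 1 control and 1 ischemia, were profiled with 10x Genomics scRNAseq. The authors deposited raw UMI counts per gene and barcode, made with Cell Ranger 7.0.0 and the mm10 genome per the submitters' processing notes. A cell was kept if it had no fewer than 200 genes, between 500 and 150000 UMIs, and a mitochondrial share of UMIs up to 55%. Libraries were integrated in Seurat 5.3.0 (2000 variable genes without the members, 30 principal components, resolution 0.3, seed 42), and clusters were named by marker genes. Scrublet called 0 doublets and was not used. UMIs were summed by cell type and library, and Aldoa was summed over its 2 identifiers. Replicates do not exist, so no test was run. Intervals were computed with scipy 1.17.1, and the ratio code was tested on simulated counts. The members and all gene lists were chosen with earlier results of these data known. Members past 1.5-fold with at least 100 UMIs are given with values, as are Hif1a, Epas1, Ldha and Ldhb, and related genes past 2-fold in PT, TAL or DCT-CNT cells. The split of PT cells by Havcr1 and of macrophages by C1q was chosen after values were seen. Alternatives were other cell filters, denominators, clusterings, folds and UMI minimums. Promoters were those of RefSeq on GRCm38.p6.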

Additional observations from a re-analysis of the deposited data

Results flagged for a closer look

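A total of 9 members had ratios of ischemia to control past 1.5-fold in opposite directions in different cell types, which is why they are listed. With 1 library per condition, none of these differences between cell types was tested. The share of all genes with ratios past the fold in opposite directions was not computed. In 5 glycolytic enzymes the ratio was past the fold upward in macrophages and downward in TAL cells. Pfkl had ratios of 1.52 in macrophages, 0.593 in TAL and 0.609 in CD-PC cells. Aldoa had 1.57 in macrophages and 0.659 in TAL cells. Pgk1 had 2.29 in macrophages, 0.566 in TAL and 0.630 in DCT-CNT cells. Pgam1 had 1.86 in macrophages, 0.644 in thin limb, 0.502 in TAL and 0.572 in DCT-CNT cells. Eno1 had 2.01 in macrophages, 0.427 in TAL and 0.540 in DCT-CNT cells. Without integration the macrophage log2 ratios of Pfkl, Aldoa, Pgam1 and Eno1 were -0.08, 0.58, 0.53 and 0.45, inside the fold. That of Pgk1 stayed past it, and TAL and CD-PC cells could not be compared there.

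The other 4 genes did not share that pattern. Pfkfb3 had ratios of 3.84 in PT, 2.23 in TAL and 2.39 in DCT-CNT cells and of 0.218 in thin limb cells. Adm had 1.87 in PT cells, 1.75 in EC and 0.546 in CD-PC cells. Its EC log2 ratio was 0.34 without integration, inside the fold. Ndrg1 had 1.86 in DCT-CNT cells, 0.550 in podocytes and 0.666 in pericytes. Its log2 ratio was 0.08 in DCT-CNT cells without integration, and -0.06 in podocytes without the 5 cells with the most UMIs. In pericytes its call was kept under 6 of 10 alternatives. P4ha1 had 1.82 in macrophages and 0.583 in CD-PC cells.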

How the results depend on the processing

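Of the 75 calls of a member in a cell type, 39 kept their direction and stayed past 1.5-fold under every alternative that gave a value, and 36 fell inside 1.5-fold or changed sign under at least 1. Most losses came without integration (21 calls), with cells gated by marker UMIs (15) and with CPM averaged over single cells (12). TAL cells kept 10 of 13 calls, PT cells 7 of 10, DCT-CNT cells 2 of 13 and macrophages 6 of 16. Without integration TAL and CD-PC cells could not be compared, so their calls did not face the setting with the most losses. The kept counts of TAL cells are thus not directly comparable with those of PT cells, DCT-CNT cells and macrophages. In the runs without integration 2 ratios changed sign, both in macrophages, with log2 values of -0.080 for Pfkl and 0.073 for Ldhb. Where only the cells counted differ, the cause was not tested.

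Counts of members higher and lower in ischemia moved as follows. Without integration, macrophages had 4 of 18 higher and 1 lower, beside 20.3% and 6.48% of all genes. T cells had 1 of 7 higher, beside 10.6%, and podocytes 1 of 12, beside 4.12%. DCT-CNT cells had 2 higher and 3 lower. The DCT-CNT counts are of 22 members tested, where 15.1% of all genes were lower. The share of all genes higher there was larger than that of members. Neither share of members was thus above that of all genes in DCT-CNT cells, though the member median stayed below that of all genes. With cells gated by marker UMIs, CD-PC cells had 2 higher with a median log2 ratio of -0.40, DCT-CNT cells 2 higher and 5 lower, pericytes 4 higher and 0 lower, and EC 0 lower. With at most 25% mitochondrial UMIs, DCT-CNT cells had 2 higher, TAL cells 1 higher, and the medians were -0.41 in CD-PC and 0.0074 in PT cells. Centred on the median of all genes, the PT median was 0.041. With CPM averaged over single cells, pericytes had 0 of 17 lower, beside 6.58% of all genes. Thin limb cells had 3 of 22 higher and 2 lower, beside 17.5% and 15.8%. At resolution 0.6 pericytes had 1 of 17 lower, beside 5.68%. Without the 5 cells with the most UMIs of a gene, CD-PC cells had 2 of 28 higher. Podocytes had 1 of 12 higher and 2 lower, and pericytes 1 of 17 lower. The shares of all genes were not recomputed for that setting. Without the top 8% of cells by doublet score, an alternative chosen after seeing the data, EC had 1 of 26 higher. The share of all genes was 5.97% there. T cells had 1 of 5 higher, beside 11.4%. The planned removal of called doublets was not run, since 0 were called.

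A fold of 2 and a minimum of 30 UMIs change the calls by construction. At a fold of 2, DCT-CNT cells had 1 of 26 members higher, EC 0 of 27 and PT cells 3 of 30. The shares of all genes were 5.12%, 1.41% and 5.81%. Macrophages had 6 of 24 higher, beside 5.54%, and pericytes 1 of 17, beside 2.56%. Lower were 1 of 28 in CD-PC, 3 of 26 in DCT-CNT and 2 of 30 in PT cells. The shares there were 3.78%, 4.53% and 3.15%. TAL cells had 5 of 26 lower, beside 7.06%, and thin limb cells 2 of 22, beside 6.01%. T cells, macrophages, pericytes and podocytes had 0 lower, beside 1.64%, 3.43%, 2.16% and 1.17%. At a minimum of 30 UMIs, CD-PC cells had 2 of 31 higher, DCT-CNT cells 8 of 30 and T cells 1 of 17. The shares of all genes were 13.7%, 16.9% and 14.8%. Pericytes had 4 of 27 higher, beside 14.8%, and podocytes 1 of 19, beside 9.36%. EC had 2 of 31 lower, beside 11.2%, and thin limb cells 8 of 29, beside 18.3%. Depth limited the small types, since 12 members were tested in podocytes and 7 in T cells. No paired analysis was possible because each condition has 1 library.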

Other observations

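In cells that took no name, some members differed as in the named types and others did not. A cluster with both TAL and DCT markers held Pgam2 at 383 and 167 CPM in control and ischemia, a ratio of 0.437, and Pfkm at 24.1 and 11.9 CPM. Gpi1 was 223 and 147 CPM there, and Hif1a was higher, at 53.2 and 90.5 CPM, a ratio of 1.70. Eno1, Pgk1, Pgam1, Tpi1 and Aldoa stayed inside the fold there, with ratios of 0.704, 0.757, 0.697, 0.791 and 0.893. Of 22 members tested in that cluster, 2 were higher and 4 lower, beside 17.1% and 13.4% of all genes. In the shallow cluster of 10431 cells, Pgam2 was 82.6 and 36.0 CPM, Pfkm was 14.2 and 6.49 CPM, and Pfkp was 15.3 and 23.3 CPM. Of 25 members tested in these cells, 2 were higher and 2 lower, beside 25.5% and 5.39% of all genes. The 3 PT clusters were alike in Pfkp, with ratios of 2.06, 3.14 and 2.49, and in P4ha2, with 1.75, 1.75 and 1.65. They were less alike in Slc2a1, with ratios of 1.27 (0.881 to 1.84), 2.13 and 2.80. Adm had 1.29 (0.893 to 1.87) in the first of them and 1.76 in the second. In the third Adm was 4.19 CPM in control and 9.70 CPM in ischemia. In IC, of which fewer than 50 cells were in the ischemia library, Ldhb was 3426 and 4359 CPM, the highest of the named types in both libraries.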
